A study of Mus musculus with 12 samples.

Results

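The regions described here are the 14648 ATAC-seq peaks that lay in intergenic DNA over 10 kb and at most 100 kb from the nearest transcription start site (TSS), out of 84243 peaks in a master peak-list of mouse blood cells (17.4%, 95% Wilson interval 17.1 to 17.6%). A peak was a member when both HOMER annotation columns of the list called it intergenic, which leaves out peaks on annotated repeats and CpG islands, and when its distance to the TSS fell within those limits. ATAC-seq marks accessible chromatin by letting a transposase insert sequencing adapters into exposed DNA. The list came from 12 samples, 2 replicates of each of 6 FACS-sorted cell types of wild-type C57BL/6 mice aged 8 to 12 weeks. By the sample labels, hematopoietic stem cells (HSCs), megakaryocyte progenitors (MkPs), erythroid progenitors (EPs), granulocyte/macrophages (GMs) and B cells were from bone marrow and T cells from thymus. The authors merged the peaks of all cell types into 1 list, which gives no cell type and no read count for a peak, and whose score was 0 throughout. How many reads support a peak is thus unknown, and no comparison between cell types or replicates was possible. Intervals below cover counting error only and treat peaks as independent, although neighbouring peaks share a locus.

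Distal intergenic elements of this kind include enhancers, which bind transcription factors and can raise transcription of a promoter far along the chromosome, and insulators, which bind CTCF and bound the loops within which enhancers act. In blood, distal enhancers are bound by lineage factors such as GATA1 in erythroid cells, PU.1 and C/EBP in myeloid cells, and E2A, EBF and RUNX factors in lymphoid cells. Accessibility alone does not show which of these an element is, or which gene it acts on, and the nearest promoter is used here as a name for a location.

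The 9 members below show what the regions look like, each as the 300 bases about its centre on the + strand of GRCm38.p6 (mm10), from RefSeq, with every match to one of 18 motif families in capitals. The first 6 are, for each list of lineage genes, a member near a listed gene. Members in a part of the genome kept out of the printed sequences were not considered. Each of the 6 held at least as many motif families in the whole peak as any other member considered for its list. They lay near Hlf (an HSC transcription factor), Gata1 (the erythroid and megakaryocytic GATA factor), Slc25a37 (the mitochondrial iron importer mitoferrin), Irf8 (a myeloid and lymphoid interferon regulatory factor), Btg1 (an anti-proliferative factor) and Cd28 (a T cell co-stimulatory receptor). The last 3 overlapped elements that RefSeq records as active in erythroid cells, and were picked after their annotation was seen.
Hlf member, chr11:90402440-90402739: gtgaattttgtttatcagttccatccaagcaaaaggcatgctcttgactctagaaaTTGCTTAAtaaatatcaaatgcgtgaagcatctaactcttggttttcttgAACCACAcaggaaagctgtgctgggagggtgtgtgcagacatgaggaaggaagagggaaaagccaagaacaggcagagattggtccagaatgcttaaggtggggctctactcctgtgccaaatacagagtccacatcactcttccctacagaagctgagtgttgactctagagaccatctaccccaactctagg
Gata1 member, chrX:7992751-7993050: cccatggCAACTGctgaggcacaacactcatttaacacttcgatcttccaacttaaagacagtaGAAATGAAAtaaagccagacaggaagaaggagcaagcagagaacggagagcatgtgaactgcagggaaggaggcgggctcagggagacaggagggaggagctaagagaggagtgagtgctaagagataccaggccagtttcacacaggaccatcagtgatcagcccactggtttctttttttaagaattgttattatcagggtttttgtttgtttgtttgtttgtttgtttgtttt
Slc25a37 member, chr14:69238218-69238517: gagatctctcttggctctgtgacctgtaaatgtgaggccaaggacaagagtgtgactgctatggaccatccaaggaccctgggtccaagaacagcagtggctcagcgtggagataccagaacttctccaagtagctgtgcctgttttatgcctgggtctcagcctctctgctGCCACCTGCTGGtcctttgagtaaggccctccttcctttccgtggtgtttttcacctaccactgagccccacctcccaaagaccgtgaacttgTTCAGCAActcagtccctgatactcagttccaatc
Irf8 member, chr8:120824703-120825002: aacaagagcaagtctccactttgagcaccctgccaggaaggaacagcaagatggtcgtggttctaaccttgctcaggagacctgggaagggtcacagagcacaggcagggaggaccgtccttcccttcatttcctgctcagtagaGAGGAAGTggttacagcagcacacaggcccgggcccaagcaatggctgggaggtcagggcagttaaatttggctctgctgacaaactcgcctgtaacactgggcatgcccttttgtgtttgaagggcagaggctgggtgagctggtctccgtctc
Btg1 member, chr10:96588291-96588590: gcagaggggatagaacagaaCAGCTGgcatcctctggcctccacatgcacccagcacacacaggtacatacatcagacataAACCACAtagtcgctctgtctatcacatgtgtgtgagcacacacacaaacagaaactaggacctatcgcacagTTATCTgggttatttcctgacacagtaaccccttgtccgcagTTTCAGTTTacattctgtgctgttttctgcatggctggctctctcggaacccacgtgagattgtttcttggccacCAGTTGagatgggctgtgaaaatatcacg
Cd28 member, chr1:60777023-60777322: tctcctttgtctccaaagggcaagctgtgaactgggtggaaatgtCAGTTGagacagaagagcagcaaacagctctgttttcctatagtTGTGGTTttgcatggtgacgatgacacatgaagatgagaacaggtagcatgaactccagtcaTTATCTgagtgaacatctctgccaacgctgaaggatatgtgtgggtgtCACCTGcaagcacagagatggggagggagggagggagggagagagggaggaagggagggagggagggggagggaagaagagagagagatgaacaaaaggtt
Beta-globin 5'HS3 member, chr7:103865769-103866068: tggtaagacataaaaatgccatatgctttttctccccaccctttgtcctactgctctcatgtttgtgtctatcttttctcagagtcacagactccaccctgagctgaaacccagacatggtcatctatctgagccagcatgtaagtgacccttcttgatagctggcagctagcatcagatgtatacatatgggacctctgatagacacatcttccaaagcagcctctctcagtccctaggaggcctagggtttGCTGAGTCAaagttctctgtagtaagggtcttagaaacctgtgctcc
Beta-globin 5'HS4 member, chr7:103870732-103871031: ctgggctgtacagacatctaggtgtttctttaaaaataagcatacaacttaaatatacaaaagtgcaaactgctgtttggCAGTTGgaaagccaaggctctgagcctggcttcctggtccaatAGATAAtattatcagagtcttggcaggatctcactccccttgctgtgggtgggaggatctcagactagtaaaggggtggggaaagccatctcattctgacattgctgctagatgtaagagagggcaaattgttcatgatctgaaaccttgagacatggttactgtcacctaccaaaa
Gata2R1 member, chr6:88116723-88117022: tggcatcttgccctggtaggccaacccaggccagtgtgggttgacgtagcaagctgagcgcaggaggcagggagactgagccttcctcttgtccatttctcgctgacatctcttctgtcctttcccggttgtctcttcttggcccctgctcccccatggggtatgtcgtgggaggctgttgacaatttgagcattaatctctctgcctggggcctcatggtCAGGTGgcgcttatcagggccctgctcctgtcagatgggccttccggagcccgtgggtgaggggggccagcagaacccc

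The Irf8 member, 86214 bp downstream of the Irf8 TSS, held a PU.1 string (GAGGAAGT) whose middle was 1 bp from the peak centre. In the Slc25a37 member, 46735 bp downstream of the TSS, a CTCF match lay 28 bp from the centre and overlapped a ZEB-type E-box. The Btg1 member, 28560 bp upstream, carried GATA, RUNX, E2A, IRF and MYB strings within the 300 bases, and its GATA string was 7 bp from the centre. The Cd28 member, 30785 bp downstream, had a GATA string 4 bp from the centre with RUNX, MYB and ZEB E-box strings around it. The Hlf member lay 11673 bp upstream and the Gata1 member 24991 bp upstream, with 2 strings each in the printed window. The 5'HS3 member held an NF-E2 string (GCTGAGTCA), the site of the erythroid and megakaryocytic factor NF-E2, 107 bp from its centre, and the 5'HS4 member a GATA string 24 bp from its centre.

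Members were spread over the whole 10 to 100 kb range with a bias towards the TSS. The median distance was 31620 bp and the middle quartiles spanned 18653 to 53509 bp. The members nearest the limits lay 10001 bp from G6pc, which encodes glucose-6-phosphatase, and 99991 bp from the non-coding gene 4921513I03Rik, while the peaks just outside were at 10000 bp (Rnf111) and 100034 bp (Ankrd55). Of all members, 28.4% lay up to 20 kb from the TSS, 43.4% from there to 50 kb and 28.2% beyond. The distances chose the members and are given as a description. Every member had the same width, and together they covered 7.31 Mb.

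Intergenic DNA itself thins out with distance from genes, so members were also counted per Mb of unmasked intergenic sequence, that is, sequence outside repeats and more than 1 kb from any curated RefSeq transcript. Of the members, 13938 (95.2%) lay more than 1 kb from any such transcript and 10 to 100 kb from a curated TSS, at 36.0 per Mb of unmasked sequence (exact Poisson 95% interval 35.4 to 36.6). Members with a repeat-masked centre were counted too, and without them 13126 were left, at 33.9 per Mb (33.3 to 34.5). By RefSeq distance, intergenic peaks fell from 49.4 per Mb (47.9 to 50.9) at 10 to 20 kb to 34.3 (32.5 to 36.1) at 40 to 50 kb and 21.1 (19.3 to 23.1) at 90 to 100 kb. The density of the nearest bin was 2.34 times that of the farthest (95% interval 2.13 to 2.57). The decline went on past the limit of the class, to 16.2 per Mb at 100 to 200 kb and 7.07 at 200 to 500 kb, whereas the density at 5 to 10 kb, 52.2 per Mb (50.2 to 54.1), had an interval that overlapped that of the nearest bin.

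More members lay upstream than downstream of the nearest TSS, but the DNA available on the 2 sides differed by as much. Upstream members made up 62.8% (Wilson interval 62.0 to 63.6%), 23.2 percentage points below intergenic peaks up to 10 kb from a TSS (86.0%, interval of the difference 22.0 to 24.4) and 13.7 points above those beyond 100 kb (49.1%, 12.0 to 15.4). Per Mb, however, there were 35.8 members (35.0 to 36.5) in upstream territory and 36.4 (35.4 to 37.3) in downstream territory, a ratio of 0.984 (0.951 to 1.02). No preference for either side was detectable once territory was counted.

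Density differed more with the accessibility of the nearest promoter. Members were 2.28 times as dense (2.20 to 2.36) in territory whose nearest curated gene had a master peak within 500 bp of a TSS, at 51.9 per Mb (50.9 to 53.0), as in territory whose nearest gene had none, at 22.8 per Mb (22.1 to 23.4). The same held for protein-coding genes (51.9 against 22.5 per Mb) and for non-coding genes (51.8 against 23.1). It held at 10 to 30 kb, with 64.6 against 29.9 per Mb, and at 30 to 100 kb, with 43.7 against 18.5 per Mb. On the upstream side the densities were 50.2 and 22.2 per Mb, and on the downstream side 55.2 and 23.6. Where the nearest gene had a promoter peak, the downstream density (53.4 to 57.2) thus exceeded the upstream one (49.0 to 51.5). Where it had none, the intervals overlapped (22.6 to 24.6 and 21.3 to 23.0). Because the list is pooled, a promoter peak and a member beside it need not come from the same cell type.

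**Figure D1:**
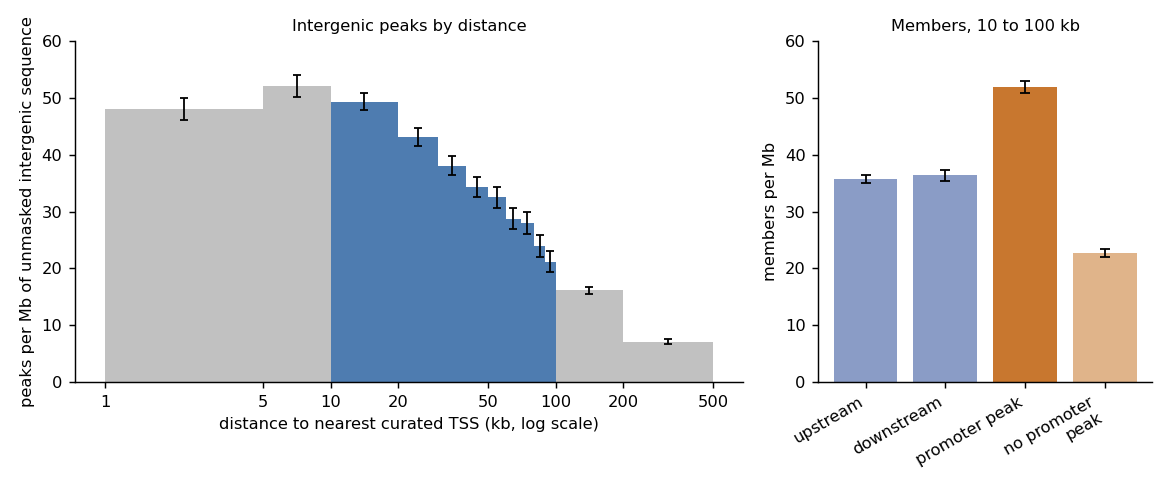
Left, intergenic peaks per Mb of unmasked intergenic sequence against distance to the nearest curated TSS (log axis), with the 10 to 100 kb range in blue; right, members per Mb by side of the TSS and by whether the nearest gene had a promoter peak. Error bars are exact 95% Poisson intervals; density fell from 49.4 to 21.1 per Mb across the range, was alike on both sides, and was 51.9 against 22.8 per Mb with and without a promoter peak.

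At 10 kb, members had neighbours somewhat less often than other peaks did. Another master peak lay within 10 kb of 70.3% of them (69.6 to 71.1%), and of 74.3% of all other master peaks (difference 3.97 points, 3.16 to 4.78). The share was 89.4% for intergenic peaks up to 10 kb from a TSS (difference 19.1 points) and 53.1% for those beyond 100 kb (17.3 points, 15.6 to 18.9). For peaks in introns the share was 75.8%. The rule keeps members over 10 kb from a TSS, so a peak at a promoter could hardly be such a neighbour. The order of these classes is thus partly set by the rule. Within 25 kb the share was 91.1% for members and 91.2% for all other master peaks (difference 0.140 points, -0.359 to 0.656). The median gap between a member and the next master peak, centre to centre, was 5209 bp. When members with centres at most 10 kb apart were joined, 1193 clusters of 3 or more held 32.1% of the members, and 6262 members (42.7%) stayed alone.

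The largest cluster, on chromosome 8, placed 19 members in 62.9 kb between Cibar2 and Gse1 (chr8:120264547-120327454), all nearest to the non-coding gene A330074K22Rik. The next, on chromosome 17, placed 18 members in 67.3 kb, mostly beside Zfp36l2, which encodes an RNA-binding protein that destabilizes AU-rich mRNAs. A cluster of 17 members in 77.2 kb lay on chromosome 8 between Irf2bp2, a transcriptional co-repressor gene, and Tomm20. Another, of 16 members in 72.3 kb, lay on chromosome 17 between Cryaa, a lens crystallin gene, and Sik1, which encodes a salt-inducible kinase, and 10 of its members were assigned to Cryaa by distance. Another 3 clusters held 14 members each, in 42.5 kb by Ralgps2 on chromosome 1, in 52.5 kb by Irf2bpl on chromosome 12 and in 57.7 kb by Prkar2b on chromosome 12. In each of these 7 clusters nearly all or all of the master peaks inside were members: 19 of 19, 18 of 20, 17 of 17, 16 of 16, and 14 of 15, 14 of 14 and 14 of 15 in the last 3. These shares are largely set by the rule. Clusters were built from members, and of the 19176 intergenic peaks at these distances, 14648 were members.

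By nearest promoter, 6200 of the 19040 genes named in the list had at least 1 member (32.6%). Of these, 2918 had exactly 1, 713 had 5 or more, and 95 had 10 or more. The 713 genes held 33.9% of the members. The nearest promoter belonged to a protein-coding gene for 80.6% of members, and to a non-coding gene or pseudogene for 19.4%, a share between those of intergenic peaks up to 10 kb (14.0%) and beyond 100 kb (28.8%) from a TSS.

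The 2 genes with most members, 21 each, were A630001O12Rik, a non-coding gene between Irf2bp2 and Tomm20, and Sik1, with 7 members upstream and 14 downstream. S1pr1, the sphingosine-1-phosphate receptor that guides lymphocyte egress, had 20, from 10402 to 84448 bp away. A330074K22Rik also had 20, all of them upstream. B3gnt2, a glycosyltransferase gene, Btg1 and Zfp217, a zinc finger gene, had 17 each. A further 5 genes had 16 members each. Of these, 2 were protein-coding, Irf2bpl, a relative of Irf2bp2, and Rpia, an enzyme gene of the pentose phosphate pathway, and 3 were non-coding, 9430078K24Rik, Gm15326 and Gm17746. The nearest protein-coding genes to all 16 members of each of the 3 were Zfp36l1, Map3k1 and Id2, respectively. Zfp36l1 is a relative of Zfp36l2, and Id2 encodes an inhibitor of E proteins. Of these 12 genes with 16 or more members, 5 were non-coding. In 77.4% of all members the nearest promoter of the list was also that of the nearest protein-coding gene of RefSeq.

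Lists of blood lineage genes were described next, beside 2 contrast lists. The 6 lineage lists held 132 genes, of which 125 were the nearest promoter of at least 1 master peak, and the other 7 were left out here. Of the 125, 62 had a member (49.6%), set against 32.6% of all genes named in the master list. The counts were 13 of 22 for HSC genes, 6 of 17 for megakaryocyte genes, 7 of 21 for erythroid genes, 14 of 23 for granulocyte and macrophage genes, 11 of 21 for B cell genes and 11 of 21 for T cell genes. Among ribosomal protein genes, broadly active in every cell, 17 of 86 had a member (14 of 76 without the Rps6k kinases, which the name rule also took), and among neural regulators 7 of the 18 named in the master list, out of 24. Genes differ in how much intergenic DNA surrounds them, so densities in the territory of each list were also computed. These were 80.9 members per Mb (70.2 to 92.8) for the 6 lineage lists together, 43.0 (29.0 to 61.3) for ribosomal genes and 48.6 (31.7 to 71.2) without the kinases, 23.5 (11.3 to 43.3) for neural regulators and 45.4 (44.6 to 46.2) for all genes. B cell genes had 137 per Mb (104 to 177), granulocyte and macrophage genes 88.0 (61.9 to 121), T cell genes 75.2 (54.2 to 102) and HSC genes 58.3 (42.7 to 77.8). The megakaryocyte list had 70.6 per Mb from 6 members (25.9 to 154) and the erythroid list 61.4 (34.4 to 101). The intervals of the HSC, megakaryocyte and erythroid lists include the value of all genes. The lists also differ in how many of their genes have a promoter peak, and they were not matched for it. Members near any gene had 51.9 per Mb with such a peak and 22.8 without. The part of promoter peaks in the list densities was not tested. Of the 37 members behind the density of granulocyte and macrophage genes, 13 were those of Irf8. Cxcr4 gave 15 of the 46 behind that of HSC genes, and Btg1 17 of the 58 for B cell genes. Ets1 gave 12 of the 42 for T cell genes, and Bcl11a 6 of the 15 for erythroid genes. Densities of the lists without these genes were not computed.

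Among HSC genes, Cxcr4, the chemokine receptor that retains HSCs in the marrow, and Fli1, an ETS factor, had 15 members each. All 15 of Fli1 lay upstream, in the interval that it shares with its relative Ets1. RefSeq gave Fli1 as the nearest protein-coding gene for 4 of them and Ets1 for the other 11. Runx1, required for the emergence of HSCs, had 7, all upstream between 42681 and 95999 bp. HSC genes with no member included Tal1, Meis1, Hoxa9, Mecom, Lyl1, Procr, Angpt1 and Ndn. Their unmasked intergenic territory was 0 kb for Hoxa9 and Lyl1, 1.55 kb for Procr and 2.02 kb for Tal1. It was 10.2 kb for Meis1, 22.7 kb for Mecom, 50.8 kb for Ndn and 59.1 kb for Angpt1. A count of none thus means less for the genes with little territory. By the nearest protein-coding TSS, Mecom had 1 member. In the megakaryocyte list, Zfpm1, which encodes the GATA1 cofactor FOG1, had 5 members and Selp, P-selectin, had 2. Another 4 genes, Gata1, Gp9, Itgb3 and Vwf, had 1 each. In the list densities, which used curated RefSeq genes, Zfpm1 had 0 kb of territory and 0 members. In the erythroid list, Bcl11a, the fetal globin repressor, had 6 members and Alas2, the erythroid heme synthesis enzyme, had 2.

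Irf8 led the granulocyte and macrophage list with 13 members. Upstream they lay at 10975 and 20973 bp from the TSS, and downstream at 19540, 21846, 28183, 36127, 38720, 57793, 69075, 82910, 86214, 89816 and 93575 bp. They thus covered most of the permitted range downstream of Irf8 and little of it upstream. The paper, however, reports Irf8 expression only in B cells, and a predicted element of it accessible in B cells and HSCs. The granulocyte and macrophage list thus does not follow the paper for Irf8. Il1b, the cytokine interleukin-1 beta, and Klf4, a monocyte transcription factor, followed with 5 each. In the B cell list Btg1 had 17, Bach2, a repressor of plasma cell differentiation, had 12, all upstream, and Foxo1, a factor of early B cell development, had 8. In the T cell list Ets1 had 10, Ccr7, a lymph node homing receptor, had 9, and Icos, a co-stimulatory receptor, had 7. By the nearest protein-coding TSS of RefSeq, Ets1 had 24. In the list densities, 3 members were counted for Ccr7. The Icos members were at 17246 and 22917 bp upstream and at 24086, 68593, 77429, 86786 and 90381 bp downstream, with 4 of the 7 grouped at the far downstream end.

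**Figure D2:**
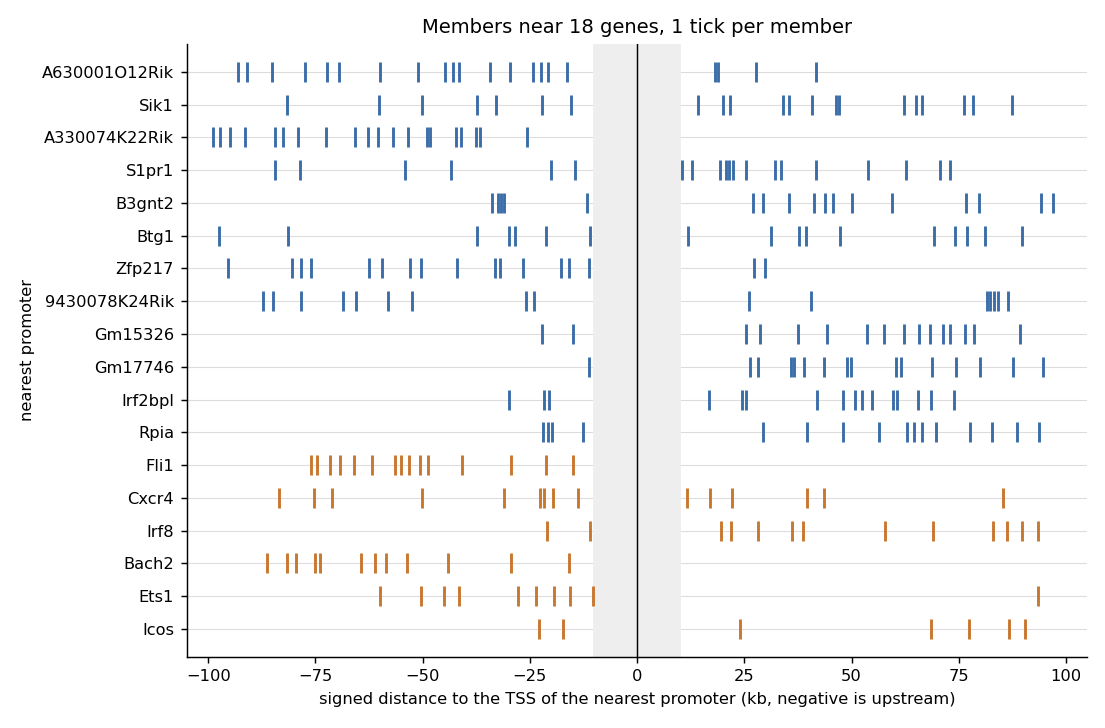
Signed distance in kb from the TSS of every member near the 12 genes with 16 or more members (blue) and near 6 genes of the lineage lists (orange), 1 tick per member, with upstream to the left and the 10 kb left out by the rule in grey. Members of A330074K22Rik, Fli1 and Bach2 were upstream throughout, and 11 of the 13 Irf8 members were downstream.

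In base composition, members were close to intron peaks and far from promoter peaks. Their median GC content was 47.9% (quartiles 44.1 and 51.7%), beside 48.5% in intergenic peaks up to 10 kb, 44.9% beyond 100 kb, 47.9% in intron peaks and 63.3% in promoter peaks. They held a median of 6 CpG dinucleotides, against 38 in promoter peaks. Windows of the same width centred 5 kb from a member, outside every master peak, served as local background. In these 27026 windows the median GC content was 44.5%. Peaks on annotated repeats were left out of the members by the rule, whereas the windows had no such filter.

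Strings for 18 transcription factor families were then searched on both strands of each whole peak. A match is a description of the letters and not a site of binding, and a family with a short string finds more matches by letters alone. CTCF, the insulator protein, searched by its core consensus, was the family with the largest ratio to the local background: 8.58% of members (8.14 to 9.05%) held it, against 0.226% of the windows 5 kb away (0.176 to 0.290%), 5.52% of all master peaks and 1.37% of promoter peaks. The share exceeded that of intergenic peaks beyond 100 kb by 2.25 points (1.37 to 3.08) and was 0.932 points below that of intergenic peaks up to 10 kb (0.0311 to 1.88). Within the class it was 10.8% at 10 to 20 kb (9.92 to 11.8%) and 7.00% at 50 to 100 kb (6.26 to 7.82%). Members with no other master peak within 10 kb held it more often than those with one, 11.3% against 7.45%, a difference of 3.83 points (2.78 to 4.92). For ETS strings the shares were 26.0% and 26.4%, with no detectable difference, and the E2A E-box was less frequent in the lone members, at 29.0% and 32.5% (difference 3.48 points, 1.84 to 5.09).

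By the same ratio PU.1 followed at 2.83, then the GC box at 2.62, NF-E2 at 2.35 and ETS at 2.16. The ETS string AGGAAGT was in 26.2% of members (25.5 to 27.0%) against 12.1% of the windows, 24.7% of all master peaks and 12.6% of promoter peaks. The PU.1 string GAGGAAGT, which contains it, was in 9.48% against 3.35% (all master peaks 9.39%), and the composite PU.1-IRF string GAANTGAAA in 6.45% against 3.90% (5.42%). NF-E2 strings (GCTGAGTCA) were rarer, in 1.96% of members, 0.833% of windows and 1.71% of all master peaks. They contain the AP-1 string TGANTCA, which was in 18.2% of members and 15.3% of all master peaks, and more frequent in members than in windows by 3.17 points (2.42 to 3.93).

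RUNX (AACCACA), a family that acts from HSCs to T cells, was in 17.7% of members against 12.2% of windows and 16.1% of all master peaks. The E2A E-box CAGCTG was in 31.5%, 20.3% and 29.8%, the EBF string CCCNNGGGA in 9.11%, 5.76% and 9.84%, the KLF string CCACACCC in 5.73%, 4.09% and 5.88%, and the NF-kB string GGGANTTCC in 2.39%, 1.61% and 2.37%. Each of these 5 families was more frequent in members than in the windows, by 1.45 times for RUNX and 1.55 times for the E2A E-box. The GC box GGGGCGG, a promoter element bound by SP and KLF factors, was in 6.50% of members, 2.48% of windows and 14.5% of all master peaks, and reached 53.4% in promoter peaks.

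For the other 6 families the ratio of members to windows was closest to equal, from 0.90 for TCF/LEF to 1.16 for C/EBP and IRF. Their differences were at most 3.00 points, but rarer strings with larger ratios differed by less, such as NF-kB with 0.780 points. For each of the 6 the interval of the difference left out equal shares. The GATA string AGATAA was in 26.7% of members and 25.7% of windows, a difference of 1.02 points (0.139 to 1.91), with 24.1% in all master peaks and 31.2% in intergenic peaks beyond 100 kb. Shares in members, windows and all master peaks were 22.0%, 19.0% and 19.3% for C/EBP (TTGCNNAA), 33.6%, 30.8% and 32.6% for the ZEB E-box (CAGGTG), 24.8%, 23.3% and 23.2% for MYB (CAACTG), and 6.67%, 5.73% and 6.01% for IRF (AAANTGAAA). The TCF/LEF string CTTTGAT was less frequent in members than in windows, at 7.89% and 8.79% (6.76% of all master peaks). The windows are richer in A and T than members, and the part of base composition in these shares was not tested.

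**Figure D3:**
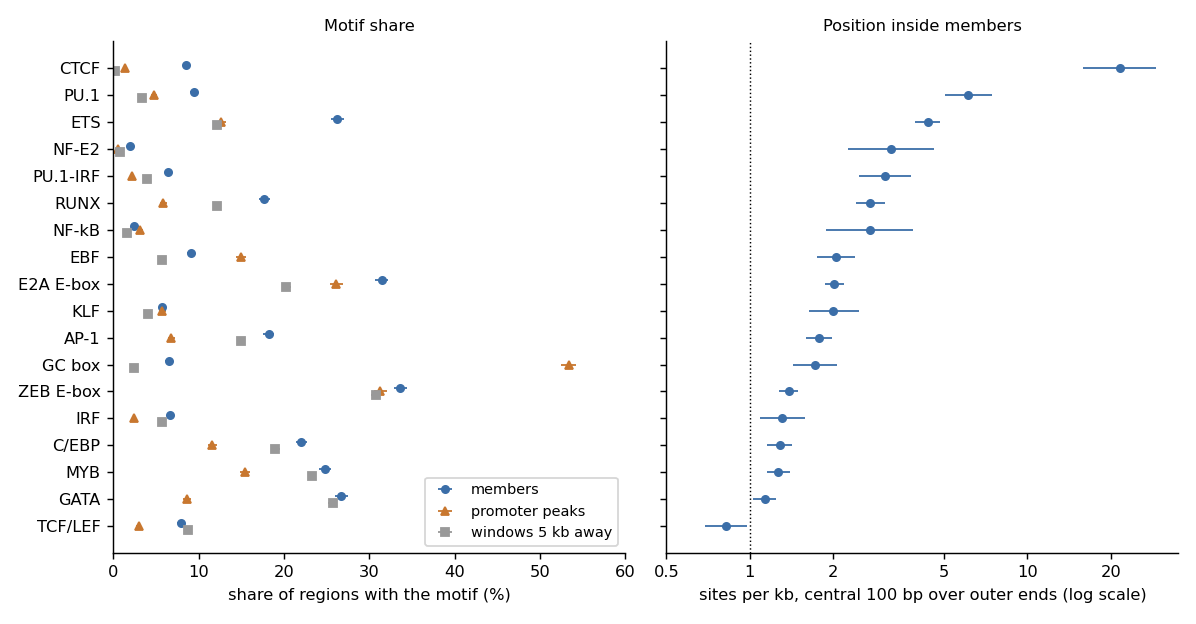
Left, share of members, promoter peaks and windows 5 kb from members that hold each motif string, with 95% Wilson intervals; right, motif sites per kb in the central 100 bp of members divided by those in their outer ends (log axis, 95% intervals, dotted line at 1). CTCF, PU.1 and ETS stand highest on the right, at 21.47, 6.13 and 4.37, and GATA and TCF/LEF lie near 1.

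Position within the peak also separated the families. The median CTCF site was 18 bp off centre, and such sites were 21.47 times as dense in the central 100 bp as in the outer ends (15.89 to 29.03). The ratio was 6.13 for PU.1 (5.06 to 7.44), 4.37 for ETS (3.95 to 4.85), 3.22 for NF-E2 (2.25 to 4.62), 3.08 for PU.1-IRF (2.48 to 3.82) and 2.72 for RUNX (2.42 to 3.06). E2A E-boxes, with a ratio of 2.01, were moderately centred. GATA strings, searched as AGATAA alone, were spread almost evenly over the peak, at 1.13 (1.03 to 1.24). TCF/LEF strings were somewhat sparser in the centre, at 0.82 (0.69 to 0.98). The share of members with a string thus depended on the width searched: in the central 200 bp it was 8.09% for CTCF but 12.0% for GATA, 10.1% for C/EBP, 12.0% for MYB and 3.08% for TCF/LEF. GC content was 50.0% in the central 200 bp of members, above that of the whole peak.

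**Figure D4:**
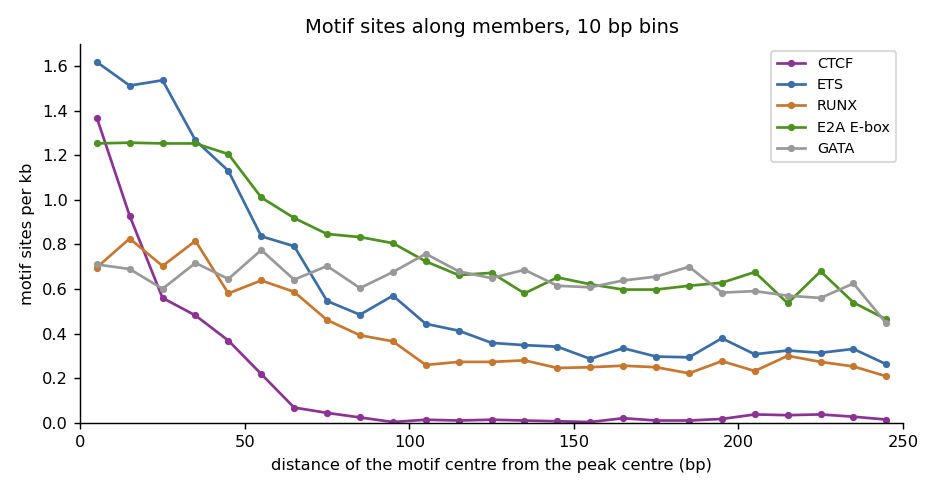
Motif sites per kb in members against the distance of the motif from the peak centre in bp, in bins of 10 bp, for 5 families. CTCF and ETS fall steeply from the centre, RUNX and the E2A E-box less so, and GATA stays nearly level.

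Of all members, 5.09% held none of the 18 strings and 10.6% held strings of 5 or more families. Beside lineage genes the numbers are small. GATA strings were in 7 of the 15 members near erythroid genes (46.7%, 24.8 to 69.9%), and PU.1 strings in 7 of the 41 near granulocyte and macrophage genes (17.1%, 8.53 to 31.3%). Both intervals include the share in all members. The 6 lists and 18 families gave 108 such pairs, and in 3 of them the 95% interval left out the share in all members. These were CTCF near HSC genes, in 0 of 58 members (Wilson upper limit 6.21%), and ETS near erythroid genes, in 0 of 15. The last was MYB near granulocyte and macrophage genes, in 16 of 41 (39.0%, 25.7 to 54.3%). The intervals are not adjusted for the number of pairs.

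Some members coincided with regulatory elements that RefSeq records from experiments. There were 95 such members (0.649%, 0.531 to 0.792%), beside 0.463% of all master peaks, 0.759% of intergenic peaks up to 10 kb from a TSS, 0.533% of intron peaks and 0.368% of intergenic peaks beyond 100 kb. Of the 95, 86 overlapped 70 enhancers of the VISTA collection, which were assayed in transgenic mouse embryos. Activity in heart was recorded for 28.6% of the 70 and in brain or neural tube for 50.0%, next to 25.6% and 46.1% of all 620 VISTA enhancers in the annotation. Examples that lay wholly over a member are enhancers near Edn1, endothelin, and Furin, both recorded in heart, near Foxl1 in branchial arch and heart, and near Sec61g in limb, branchial arch and eye.

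The other 9 members overlapped elements from single studies. Blood elements among them were hypersensitive sites 5'HS3 and 5'HS4 of the beta-globin locus control region, which is needed for high-level expression of the beta-globin genes, and the Gata2R1 fragment, an erythroid enhancer in cell lines. The 5'HS3 member had Hbb-y, an embryonic globin gene, as its nearest promoter, 12712 bp away, whereas the 5'HS4 member was assigned to an olfactory receptor gene, Olfr66, at 11359 bp. The Gata2R1 member overlapped its element by 298 bp and was assigned to the microRNA gene Mir6376, at 12615 bp. The nearest promoters of the last 2 were thus neither a globin gene nor Gata2. Members also lay on elements described in other tissues: the R3 element 94526 bp upstream of Runx3, recorded in sensory neurons, the H element 52430 bp upstream of Olfr1507 and the Fourni enhancer by Olfr523, both enhancers of olfactory receptor genes. A further member, 13211 bp upstream of Mcl1, an anti-apoptotic gene, overlapped a region that raises Mcl1 expression in embryonic stem cells. The last 2 lay 66180 bp from Klhl25, on a region that lowers Akap13 expression in embryonic stem cells, and 24026 bp from Slc2a3, on a fragment that activates the promoter of the pluripotency gene Nanog.

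The intergenic call depended on the gene models. The centre of 21.7% of members (21.1 to 22.4%) lay inside a RefSeq transcript of some kind, 15.6% inside a predicted non-coding one, but 2.73% inside a curated one. GENCODE M21 long non-coding genes contained 9.80%, fewer than the 13.7% among intergenic peaks beyond 100 kb. By chromosome, autosomes carried from 4.20 (chromosome 14) to 7.09 (chromosome 17) members per Mb of assembled sequence, and the X chromosome 1.90, with 310 members. Chromosome X held 2.12% of members and 2.17% of all master peaks, so its low count was shared by the whole list.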

How the data were processed

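Chromatin accessibility was measured by ATAC-seq in 12 samples. The authors aligned reads to mm10 with the ENCODE ATAC-seq pipeline, took reproducible peaks of each cell type, merged them to non-overlapping peaks with chromVAR and annotated them with HOMER (version 4.10.2 in the submitters' processing notes). The deposited table, pooled over all samples, gives start, end and distance to the TSS in bp, without normalization, and was used as deposited; its 0 columns of values per sample leave no test across samples.

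Sequence, genes and functional elements came from RefSeq GRCm38.p6, and long non-coding genes from GENCODE M21. Densities used unmasked bases in bins of 100 bp outside curated transcripts and 1 kb around them. Shares have Wilson, differences Newcombe, and densities exact Poisson 95% intervals; ratios use a log-normal interval. Motifs were exact strings, on both strands.

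Members, gene lists and motifs were chosen with earlier results of these data known. The genes and regions named were the 10 genes with most members (12 with ties), the 3 of each of the 6 lineage lists with most members, at most 15 functional elements by overlap (ties by shorter element), the 5 largest clusters (7 with ties), 1 printed member per lineage list, the members at the distance limits, and Irf8 and Icos; a few of these are not reported here. The other genes and elements named were chosen after their values were seen. The motif search and intervals were tested on simulated data. Alternatives concerned annotation columns, gene sets, distances, windows and motif matching. The tools were Python (3.11.15) with scipy (1.17.1), numpy (2.4.6) and pandas (2.3.3), and plots were drawn with matplotlib (3.10.9).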

Additional observations from a re-analysis of the deposited data

How the results depend on the processing

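No paired analysis was possible because the list holds no value per sample, and for the same reason no replicate could be left out. The number of members, of genes with a member, of lineage genes with a member and of members on functional elements stayed within 1.5 times under every alternative run. The upstream share was 61.0% by curated RefSeq TSSs and 59.7% from 20 kb on, and the median distance was 30872 bp by RefSeq. Another master peak lay within 5 kb of 48.8% and within 25 kb of 91.1% of members, and joining at 5 kb left 600 clusters. Median GC content was 50.0% in the central 200 bp and 47.5% with repeat and CpG island peaks kept. With curated transcripts alone, 2.73% of members lay in a gene model. The median motif share over the 18 families, 9.30%, became 7.55% in the central 200 bp, where the share of 15 of the 18 families fell by more than 1.5 times (CTCF, ETS and PU.1 by less), 8.25% with masked bases removed and 73.8% with 1 mismatch allowed, where the string carries little information. Chosen after seeing the data, a promoter peak within 1 kb gave a density ratio of 2.42, and counting members with an unmasked centre gave 2.29, 0.980 and 2.38 for the promoter, side and distance ratios. Peak depth and cell type limit every value, since neither is in the list.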

Other observations

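Peaks left out of the class for lying on a repeat numbered 4148 at the same distances, or 21.6% of the 19176 intergenic peaks there. Long terminal repeats of endogenous retroviruses made up 49.6% of them (48.1 to 51.2%), short interspersed elements 21.8% and long interspersed elements 18.6%. Another master peak lay within 10 kb of 68.0%, against 70.3% of members, and 64.1% were upstream of the nearest TSS, against 62.8%. A further 380 peaks at these distances lay on CpG islands.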
